A study of Mus musculus with 16 samples.

Results

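Fcer1g, Fcgr1, Fcgr2b and Fcgr3 encode Fc receptors found on microglia, the phagocytes that live in brain tissue: 3 receptors for the constant part of IgG antibodies and the signalling chain that the activating ones share. They were taken by symbol from a table of bulk RNA sequencing that lists 55359 mouse genes, so 4 of 55359 genes are described here, and all 4 passed the filter on low counts. The table covers 16 libraries of poly(A) RNA from the cortex of mice injected with AAV, an adeno-associated virus used here to bring a construct into cells. The series concerns polyG, a protein made of repeated glycine that GGC repeats can encode, and its title names microglia and neuronal intranuclear inclusion disease, a neurodegenerative disorder with inclusions in cell nuclei. There were 4 libraries for each of 4 constructs. ATG-GGN100dCT has 100 repeat units written GGN, which covers every glycine codon, and follows an ATG. ATG-GGC100 has 100 GGC units after an ATG, the usual start codon. TAG-GGC100 has 100 GGC units with TAG, a stop codon, in place of the ATG. ATG-GGC11 has 11 GGC units after an ATG. All 16 libraries therefore carry an AAV and a repeat construct, and uninjected cortex was not analysed here. The sources used here do not say what dCT stands for, which promoter drives the constructs, the strain, sex and age of the mice, or whether animals were pooled.

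Fc receptors let immune cells read antibodies that have bound a target. Fcgr1 encodes the high-affinity IgG receptor, which binds even single antibodies, and Fcgr3 encodes a low-affinity receptor that responds to IgG in immune complexes. Neither carries a signalling motif of its own in the mouse. Both pair with the Fc receptor gamma chain encoded by Fcer1g, whose immunoreceptor tyrosine-based activation motif (ITAM) is phosphorylated by Src-family kinases and then recruits the kinase Syk, which leads to phagocytosis and cytokine release. Fcgr2b encodes the only inhibitory IgG receptor: its inhibitory motif (ITIM) recruits phosphatases such as the one encoded by Inpp5d and dampens the activating receptors. The balance between Fcgr2b and the activating receptors sets how strongly a phagocyte reacts to immune complexes.

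The coding sequences of both signalling motifs are shown because they separate the activating chain from the inhibitory receptor. They were read from GENCODE transcripts of the GRCm38 build, on the minus strand, with the tyrosine codons in capitals. The Fcer1g stretch joins exons within chr1:171229877-171230084 and covers codons 61 to 83 of Fcer1g-201. The Fcgr2b stretch lies at chr1:170961059-170961100 and covers codons 313 to 326 of Fcgr2b-201.
Fcer1g ITAM: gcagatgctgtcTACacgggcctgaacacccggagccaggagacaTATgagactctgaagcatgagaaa
Fcgr2b ITIM: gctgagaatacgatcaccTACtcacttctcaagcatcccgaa

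Fcgr2b and Fcgr3 are close relatives, and a stretch of 129 coding bases is identical in them. It is shown because a read that falls within it cannot be given to either gene by its letters. It lies within chr1:170966674-170968081 in Fcgr2b and within chr1:171054167-171057792 in Fcgr3 (GRCm38, minus strand, exons joined).
Fcgr2b and Fcgr3: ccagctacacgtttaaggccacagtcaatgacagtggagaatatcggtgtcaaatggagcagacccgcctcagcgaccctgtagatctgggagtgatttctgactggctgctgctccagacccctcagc
Over 782 aligned coding bases the genes were 86.7% identical. Of all 50-base windows of the Fcgr3 transcripts, 10.2% also occurred in an Fcgr2b transcript, and no window of 150 bases did. Every other pair among Fcgr1, Fcgr2b, Fcgr3 and their relative Fcgr4 was 64.1% to 67.3% identical, with no shared window of 50 bases. The sources used here do not say how reads with several matches were counted, so the levels of Fcgr2b and Fcgr3 carry this uncertainty.

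The promoters of the 4 genes were searched because the genes rose together in the results below. The windows were the 250 bases before each start site in RefSeq's promoter table for GRCm38.p6, which held all 4 genes, and both strands were read. GAGGAA, the core of sites bound by PU.1, a transcription factor of the myeloid lineage, occurred in the windows of Fcgr1 and Fcgr3 and not in those of Fcgr2b and Fcer1g. It occurred in 23.3% of 32851 promoter windows. The longer form GAGGAAGT, which contains it, occurred in none of the 4 windows and in 2.44% of all. The stretches below are on the minus strand, 5′ to 3′ along the gene, with the match in capitals, TTCCTC being GAGGAA on the other strand.
Fcgr1, chr3:96293999-96294044: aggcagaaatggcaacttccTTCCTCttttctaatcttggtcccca
Fcgr3, chr1:171059395-171059429: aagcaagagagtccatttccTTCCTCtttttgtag
A match of letters does not show that a factor binds there.

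The 16 libraries held 12838756 to 19131210 counts each. Rows for the constructs took 0.00088 to 0.00363% of the counts in ATG-GGN100dCT and 0.00026 to 0.00054% in ATG-GGC100. They took 0.00107 to 0.00158% in TAG-GGC100 and 0.00358 to 0.00714% in ATG-GGC11. The groups thus differed in counted construct RNA as well as in design, and the part of this in the results was not tested. Levels are given in FPKM, the authors' deposited unit, which divides the count by exonic length and library total and so allows genes to be compared. ATG-GGN100dCT replicate 3 stood apart from its group. It had the lowest microglial marker mean of all 16 libraries, 2.90 on the log2 scale against 3.41, 3.46 and 3.48 in the other 3 of its group, and the lowest Fcer1g and Fcgr1 of all 16. Its Fcgr2b was also the lowest of its group, while its Fcgr3, at 9.94 FPKM, was the group's second highest. Slc17a7, a gene of excitatory neurons, was at 372 FPKM there against 184 to 282 FPKM in the others, and Mbp, a myelin gene, at 177 against 310 to 347 FPKM. Without this library, Fcer1g differed between ATG-GGN100dCT and ATG-GGC11 by 0.31 in place of 0.13 on the log2 scale, and it did not pass (edgeR adjusted p = 0.210).

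The receptors differed widely in level. Fcer1g reached 5.33 to 19.0 FPKM and Fcgr3 6.40 to 16.8 FPKM over the 16 libraries, and each was above Fcgr1 in 16 of 16. Fcgr1 spanned 0.76 to 2.57 FPKM and Fcgr2b 0.54 to 2.18 FPKM. Fcgr1 was above Fcgr2b in 15 of 16 libraries, the exception being ATG-GGN100dCT replicate 3. Fcer1g and Fcgr3 overlapped in range in every group: Fcer1g was the higher in 9 of 16 libraries, with 2 of 4 in ATG-GGN100dCT, 4 of 4 in ATG-GGC100, 1 of 4 in TAG-GGC100 and 2 of 4 in ATG-GGC11. The counts behind these levels ran from 33 in the lowest library of Fcgr1 to 532 in the highest of Fcgr3. Bulk tissue was sequenced, so a change in the number of cells of a type and a change in RNA per cell cannot be told apart in any level or change below.

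**Figure D1:**
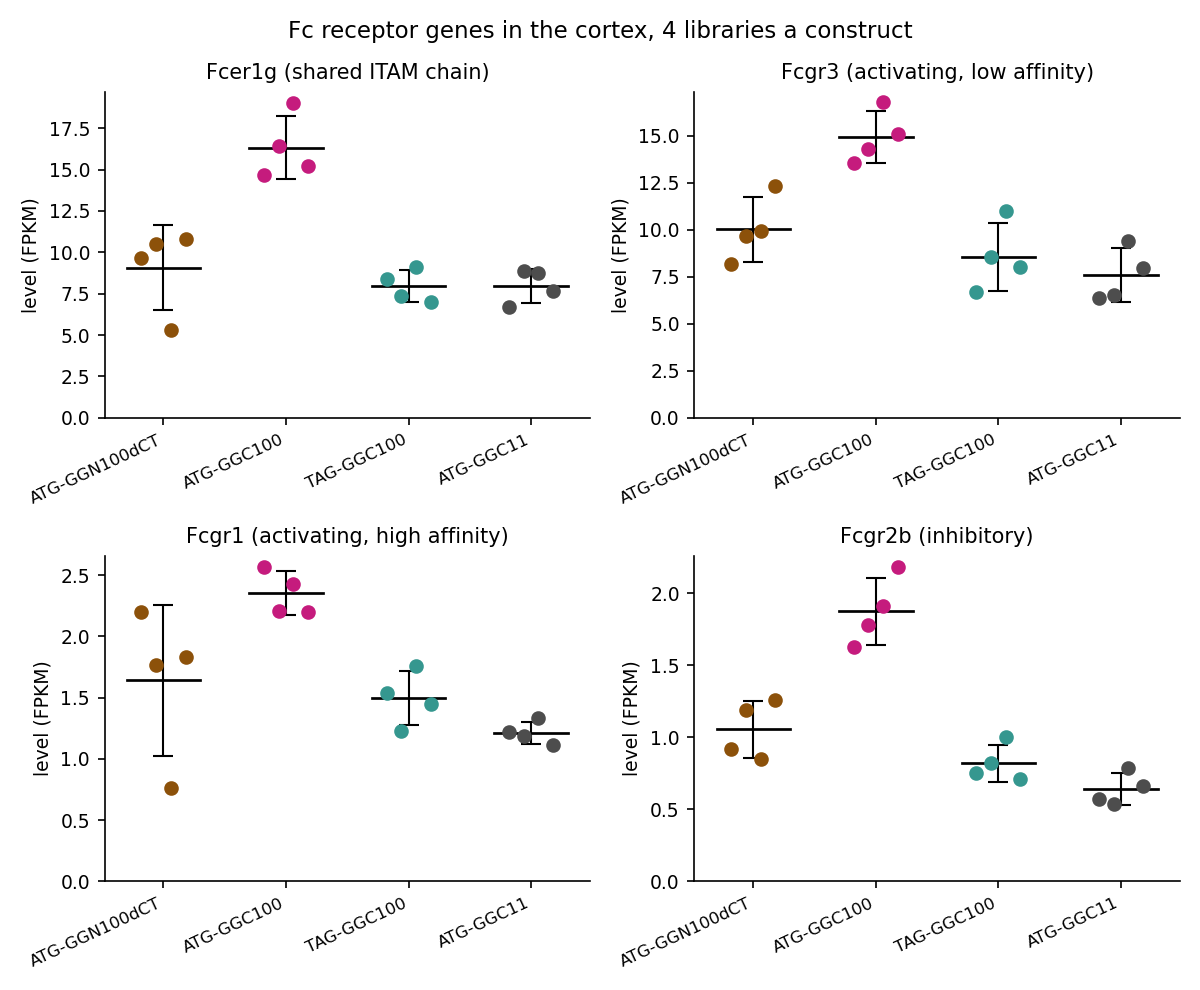
Level in FPKM (y axis, starting at 0) of each Fc receptor gene in the 4 libraries of each construct (points), with the mean and SD of each group (horizontal line and bar). In all 4 panels the ATG-GGC100 libraries are above every TAG-GGC100 and ATG-GGC11 library, and ATG-GGN100dCT replicate 3 is the lowest library of Fcer1g and of Fcgr1. The share of all genes tested that separate in this way was not counted.

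Fcer1g, the shared ITAM chain (ENSMUSG00000058715, minus strand of chromosome 1, 171057141 to 171061934 as the deposited table gives it), had 9.65, 10.5, 5.33 and 10.8 FPKM in the ATG-GGN100dCT libraries. The ATG-GGC100 libraries had 14.7, 16.4, 19.0 and 15.2 FPKM. The TAG-GGC100 libraries had 8.40, 7.35, 9.12 and 6.97 FPKM, and the ATG-GGC11 libraries 6.68, 8.85, 8.74 and 7.66 FPKM. Every ATG-GGC100 library stood above all 12 others, whereas ATG-GGN100dCT overlapped both TAG-GGC100 and ATG-GGC11. How many of all genes tested separate in this way was not counted, for this gene or those below. The mean was 16.3 ± 1.92 FPKM in ATG-GGC100 against 7.98 ± 1.02 FPKM in ATG-GGC11 (SD, n = 4 each). The fitted log2 fold change was 0.99 ± 0.17 (SE; edgeR quasi-likelihood test, Benjamini-Hochberg adjusted p = 0.00142), and 1.00 ± 0.17 over TAG-GGC100 (edgeR adjusted p = 0.00108). Fcer1g was lower in ATG-GGN100dCT than in ATG-GGC100, with a log2 fold change of -0.85 ± 0.16 (edgeR adjusted p = 0.00715; 0.0551 when only the 8 libraries of these groups entered the fit). ATG-GGN100dCT averaged 9.08 ± 2.55 FPKM, and its log2 differences from ATG-GGC11 and TAG-GGC100 were 0.13 and 0.15 (edgeR adjusted p = 0.680 and 0.641). TAG-GGC100, at 7.96 ± 0.982 FPKM, had a log2 difference of -0.01 ± 0.17 from ATG-GGC11 (edgeR adjusted p = 0.999).

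Fcgr3, the low-affinity activating receptor (ENSMUSG00000059498, chromosome 1, 170878743 to 170892504, minus strand), had 8.18, 9.66, 9.94 and 12.4 FPKM in ATG-GGN100dCT. It had 13.5, 14.3, 16.8 and 15.1 FPKM in ATG-GGC100. In TAG-GGC100 it had 6.68, 8.53, 10.99 and 8.03 FPKM, and in ATG-GGC11 6.40, 6.53, 9.43 and 7.99 FPKM. ATG-GGC100 again lay above all other libraries, and the other 3 groups overlapped one another. Its mean of 14.9 ± 1.39 FPKM in ATG-GGC100 against 7.59 ± 1.42 FPKM in ATG-GGC11 gave a log2 fold change of 0.93 ± 0.15 (edgeR adjusted p = 0.000918). Over TAG-GGC100, at 8.56 ± 1.8 FPKM, the log2 fold change was 0.76 ± 0.15 (edgeR adjusted p = 0.00361). ATG-GGN100dCT was lower than ATG-GGC100 by a log2 fold change of -0.58 ± 0.14 at an adjusted p near the threshold (edgeR adjusted p = 0.0422). That call was lost when any of the 4 ATG-GGC100 libraries, ATG-GGN100dCT replicate 1, 2 or 3, TAG-GGC100 replicate 2 or 4 or ATG-GGC11 replicate 4 was left out (adjusted p of up to 0.138), and with limma (adjusted p = 0.0709). The difference of ATG-GGN100dCT from ATG-GGC11 was 0.36 ± 0.15 (edgeR adjusted p = 0.148), and that from TAG-GGC100 0.19 ± 0.15 (edgeR adjusted p = 0.460). TAG-GGC100 differed from ATG-GGC11 by 0.17 ± 0.15 (edgeR adjusted p = 0.921).

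Fcgr1, the high-affinity activating receptor (ENSMUSG00000015947, chromosome 3, 96190225 to 96201285, minus strand), had 2.20, 1.77, 0.76 and 1.83 FPKM in ATG-GGN100dCT, where replicate 3 was the lowest of all 16 libraries. The ATG-GGC100 libraries had 2.57, 2.21, 2.43 and 2.20 FPKM. TAG-GGC100 had 1.54, 1.23, 1.76 and 1.45 FPKM, and ATG-GGC11 had 1.22, 1.19, 1.33 and 1.11 FPKM. ATG-GGC100 did not overlap TAG-GGC100 or ATG-GGC11 but met ATG-GGN100dCT at 2.20 FPKM. Its mean of 2.35 ± 0.18 FPKM in ATG-GGC100 against 1.21 ± 0.0911 FPKM in ATG-GGC11 gave a log2 fold change of 0.91 ± 0.22 (edgeR adjusted p = 0.0218). The call was lost without ATG-GGC100 replicate 3 or without ATG-GGC11 replicate 1, 2 or 4, with an adjusted p of up to 0.0665. Over TAG-GGC100, at 1.5 ± 0.219 FPKM, the log2 fold change of 0.62 ± 0.21 did not pass (edgeR adjusted p = 0.0795). It passed with no filter on low counts (0.0457), in the 8 libraries compared (0.0294) and without ATG-GGN100dCT replicate 3 (0.0121), a library outside this comparison that enters through the shared estimate of the spread. ATG-GGN100dCT, at 1.64 ± 0.617 FPKM, differed from ATG-GGC11 by 0.38 ± 0.22 (edgeR adjusted p = 0.305). Without its replicate 3 the log2 fold change was 0.62 and passed (edgeR adjusted p = 0.0428). The remaining log2 differences were -0.53 for ATG-GGN100dCT against ATG-GGC100, 0.10 for ATG-GGN100dCT against TAG-GGC100 and 0.29 for TAG-GGC100 against ATG-GGC11 (edgeR adjusted p = 0.208, 0.824 and 0.900). Without ATG-GGN100dCT replicate 3 the first was -0.29 and the second 0.33, and without its replicate 1 the second turned to -0.09, none of them passing (adjusted p = 0.449, 0.244 and 0.840).

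Fcgr2b, the inhibitory receptor (ENSMUSG00000026656, chromosome 1, 170786186 to 170804116, minus strand), had the lowest mean level of the 4 in every group and the highest fold change over ATG-GGC11. It had 0.92, 1.19, 0.85 and 1.26 FPKM in ATG-GGN100dCT and 1.63, 1.78, 1.91 and 2.18 FPKM in ATG-GGC100. TAG-GGC100 had 0.75, 0.82, 1.00 and 0.71 FPKM, and ATG-GGC11 had 0.57, 0.54, 0.79 and 0.66 FPKM. Neither ATG-GGC100 nor ATG-GGN100dCT overlapped ATG-GGC11, and ATG-GGC100 lay above every other library. The mean of 1.88 ± 0.233 FPKM in ATG-GGC100 against 0.64 ± 0.112 FPKM in ATG-GGC11 gave a log2 fold change of 1.51 ± 0.16, or 2.85-fold (edgeR adjusted p = 2.1e-05). This call held in every alternative tried, with an adjusted p of at most 0.0112. Over TAG-GGC100, at 0.82 ± 0.128 FPKM, the log2 fold change was 1.16 ± 0.16 (edgeR adjusted p = 0.000169). ATG-GGN100dCT, at 1.05 ± 0.2 FPKM, stood between the 2: it was lower than ATG-GGC100 by a log2 fold change of -0.83 ± 0.15 (edgeR adjusted p = 0.00504) and higher than ATG-GGC11 by 0.68 ± 0.17 (edgeR adjusted p = 0.0213). The call over ATG-GGC11 was lost without ATG-GGN100dCT replicate 4 or without ATG-GGC11 replicate 1 or 2 (adjusted p of up to 0.0781), and when only those 8 libraries were fitted (0.0537). Against TAG-GGC100, ATG-GGN100dCT differed by 0.33 ± 0.16 (edgeR adjusted p = 0.219), and TAG-GGC100 differed from ATG-GGC11 by 0.35 ± 0.17 (edgeR adjusted p = 0.735).

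**Figure D2:**
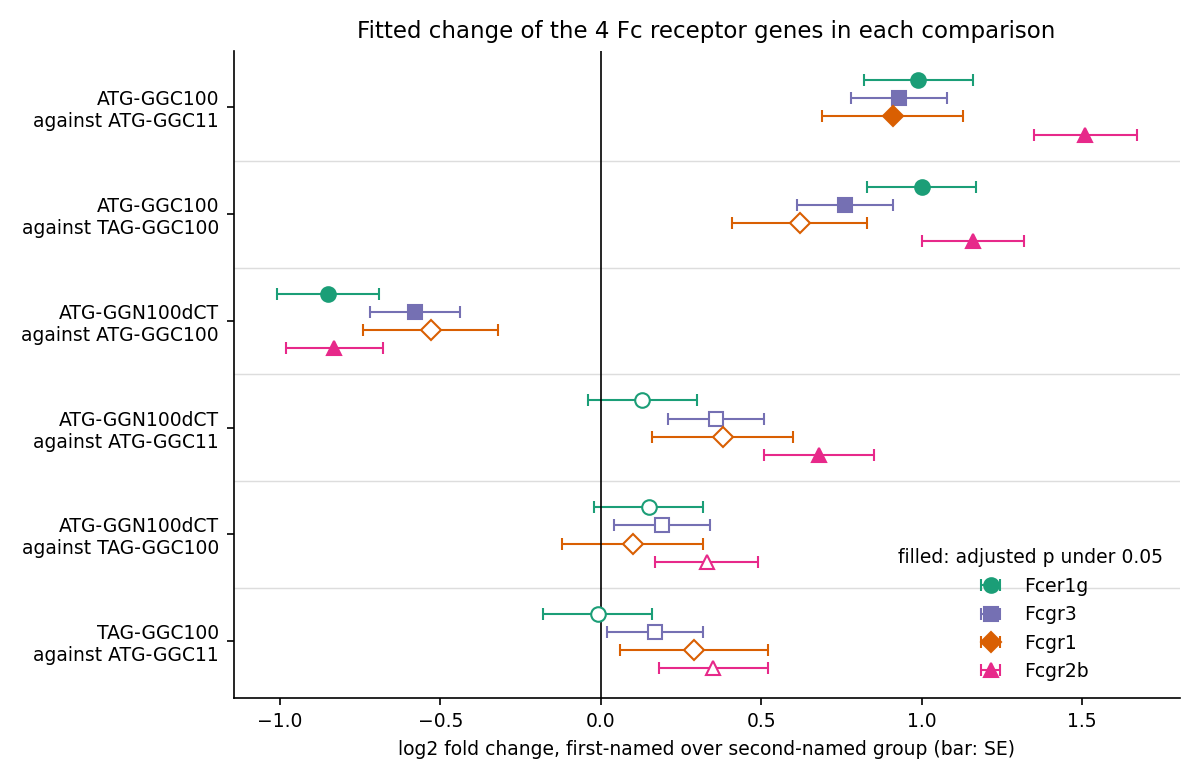
Fitted log2 fold change (x axis) of the 4 Fc receptor genes in each of the 6 comparisons (y axis), first-named over second-named group, with SE bars; filled symbols have an edgeR adjusted p under 0.05. ATG-GGC100 over TAG-GGC100 and over ATG-GGC11 sits between 0.62 and 1.51, and Fcgr2b alone is filled for ATG-GGN100dCT against ATG-GGC11.

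Counted over the 4 genes, all 4 rose in ATG-GGC100 relative to ATG-GGC11, with a median log2 fold change of 0.96. In that comparison 3.5% of the 17737 genes tested were called, 2.2% as higher, and the median over all of them was 0.00. Against TAG-GGC100, 3 of 4 rose in ATG-GGC100 (median 0.88), where 7.44% of all genes were called, 4.05% as higher. These comparisons share the ATG-GGC100 libraries and are not independent of each other. In ATG-GGN100dCT against ATG-GGC100, 3 of 4 fell (median -0.71), where 2.05% of all genes were called, 1.19% as lower. In ATG-GGN100dCT against ATG-GGC11, 1 of 4 rose (median 0.37), where 6.66% of all genes were called, 3.17% as higher. In ATG-GGN100dCT against TAG-GGC100 edgeR called 0 of 4, with 0 of 4 under an unadjusted p of 0.05, where 8.69% of all genes were called and 25% had an unadjusted p under 0.05. In TAG-GGC100 against ATG-GGC11 it also called 0 of 4, with 0 of 4 under an unadjusted p of 0.05, where 0.00564% of all genes were called and 6.87% had an unadjusted p under 0.05. DESeq2 and limma called 0 of 4 in both of these comparisons as well. A p that misses the threshold does not show that the groups were equal.

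Whether the receptors changed by different amounts was tested on the ratio of each pair within a library, as log2 of FPKM + 0.1, with an exact two-sided permutation test over the 4 and 4 libraries. That test cannot give a p under 0.0286. The log2 ratio of Fcgr2b to Fcgr3, the inhibitory over the low-affinity activating receptor, was -2.93 ± 0.14 in ATG-GGC100 against -3.37 ± 0.07 in ATG-GGC11 (SD, n = 4 each). These groups did not overlap (difference 0.44, exact p = 0.0286), and with no pseudocount the difference was 0.57. In linear terms Fcgr3 had 8.31, 8.04, 8.80 and 6.92 times the FPKM of Fcgr2b in the ATG-GGC100 libraries, against 11.2, 12.1, 11.9 and 12.1 times in the ATG-GGC11 libraries. The log2 ratio of Fcgr2b to Fcgr1 was higher by 0.52, and that of Fcer1g to Fcgr2b lower by 0.40, in ATG-GGC100 than in ATG-GGC11 (exact p = 0.0286 each). Fcer1g to Fcgr2b was also lower in ATG-GGN100dCT than in ATG-GGC11, at 2.95 ± 0.31 against 3.45 ± 0.24 (exact p = 0.0286). Those 4 of the 36 ratio tests had an exact p under 0.05, and after Benjamini-Hochberg adjustment over the 36 none passed (adjusted p = 0.257 for each of the 4). The ratios among Fcer1g, Fcgr3 and Fcgr1 differed by 0.04 to 0.12 between ATG-GGC100 and ATG-GGC11, within the spread of the libraries. With a pseudocount of 1, larger than most Fcgr2b values, the difference of Fcgr2b to Fcgr3 turned to -0.09. Its sign therefore depends on the pseudocount, being positive with 0.1 and with none. The edgeR log2 fold changes on counts were 1.51 for Fcgr2b and 0.93 for Fcgr3.

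**Figure D3:**
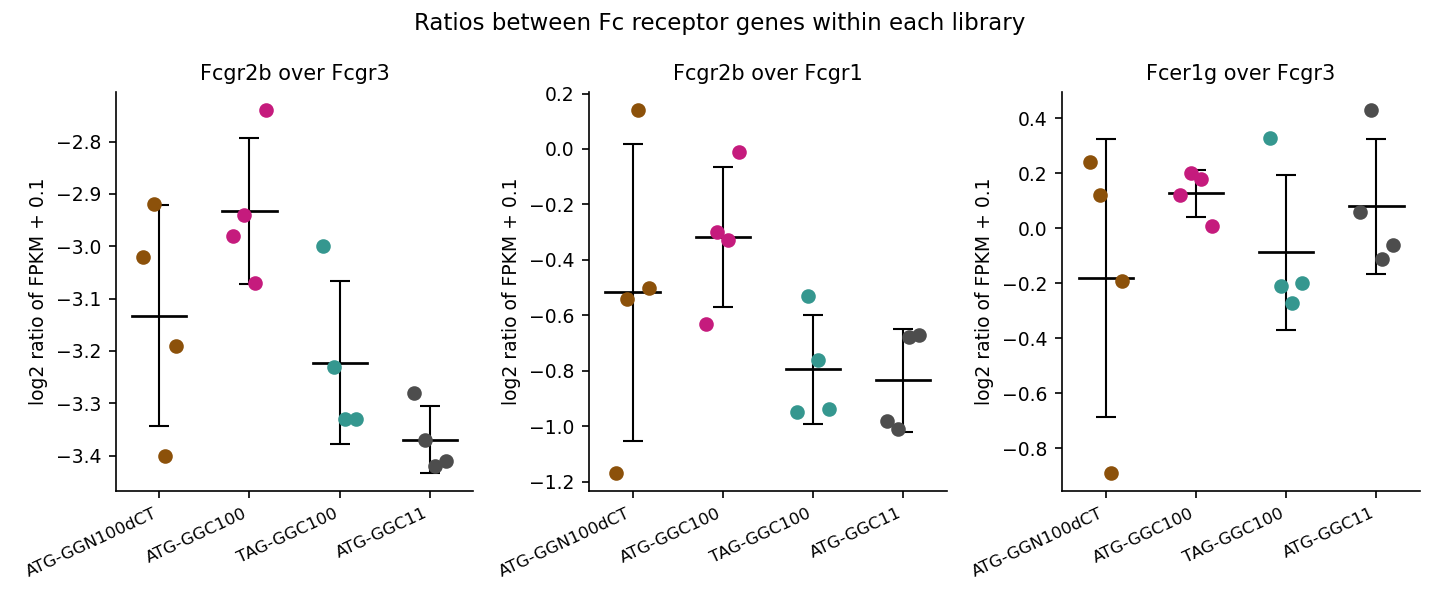
Log2 ratio of FPKM + 0.1 (y axis) between pairs of Fc receptor genes within each library (points), by construct, with mean and SD. Fcgr2b over Fcgr3 is between -3.07 and -2.74 in ATG-GGC100 and between -3.42 and -3.28 in ATG-GGC11, while Fcer1g over Fcgr3 overlaps between all groups.

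Markers of microglia were also higher in ATG-GGC100. A list of 8 markers, among them P2ry12, Tmem119, Cx3cr1 and Csf1r, summed to 87.2 to 126 FPKM in ATG-GGN100dCT, 149 to 188 FPKM in ATG-GGC100, 96.8 to 110 FPKM in TAG-GGC100 and 105 to 126 FPKM in ATG-GGC11. In ATG-GGC100 against ATG-GGC11, 3 of the 8 rose, Csf1r and Cx3cr1 among them, with a median log2 fold change of 0.47, and the Cx3cr1 call was lost without ATG-GGC100 replicate 2 or 3 or ATG-GGC11 replicate 1, 2 or 4 (edgeR adjusted p of up to 0.0815). Against TAG-GGC100, 6 of the 8 were higher in ATG-GGC100 (median 0.55), and 6 of the 8 were lower in ATG-GGN100dCT than in ATG-GGC100 (median -0.55). In the other 3 comparisons edgeR called 0 of the 8. Over all genes tested, 2.2% were called higher in ATG-GGC100 than in ATG-GGC11 and 4.05% higher than in TAG-GGC100. The share called lower in ATG-GGN100dCT than in ATG-GGC100 was 1.19%. All 8 reached 1 FPKM, and 7 genes of cortical neurons, glia and endothelium summed to 594 to 748 FPKM over all libraries, as labelled. Each receptor was therefore also set against the mean log2(FPKM + 0.1) of these 8 genes. Fcgr2b stood 2.86 ± 0.12 below that mean in ATG-GGC100 against 3.81 ± 0.14 below it in ATG-GGC11, a difference of 0.95 ± 0.09 that was 0.38 with a pseudocount of 1. The other 3 were higher relative to the markers in ATG-GGC100 than in ATG-GGC11 by 0.55 (Fcer1g), 0.51 (Fcgr3) and 0.43 (Fcgr1, 0.17 with a pseudocount of 1). In each of the 4 these groups did not overlap (exact p = 0.0286). Against TAG-GGC100, Fcgr2b was higher in ATG-GGC100 by 0.53 (0.13 with a pseudocount of 1) and Fcer1g by 0.45, without overlap (exact p = 0.0286 each). Fcgr3 and Fcgr1 differed there by 0.24 and 0.05, with overlap (exact p = 0.2 and 0.657). Fcgr2b was also higher relative to the markers in ATG-GGN100dCT than in ATG-GGC11, by 0.69 (exact p = 0.0286; 0.37 with a pseudocount of 1). In TAG-GGC100 against ATG-GGC11, Fcgr2b and Fcgr1 were higher relative to the markers by 0.42 and 0.38 without overlap, although neither difference in level passed the test (exact p = 0.0286 each). Of the 24 such tests 10 had an exact p under 0.05, and none passed after adjustment (the lowest adjusted p was 0.0686). An exact p of 0.0286 is the smallest this permutation test can give, and any 2 groups without overlap reach it. Other genes were not set against the markers in this way. In a fit with the mean log2 CPM (counts scaled to library size) of the markers as a covariate, Fcgr2b alone passed for ATG-GGC100 against ATG-GGC11, at a log2 fold change of 1.15 (edgeR adjusted p = 0.0112). Fcgr3 was at 0.81 (0.0676), Fcer1g at 0.42 (0.260) and Fcgr1 at 0.27 (0.664). The marker mean, as log2(FPKM + 0.1), was 3.68 to 4.00 in ATG-GGC100 and at most 3.50 in any other library. The covariate and this construct thus go together, and the fit cannot cleanly separate them, whether a call was kept or lost. The share of each change that goes with the number of microglia was not tested.

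**Figure D4:**
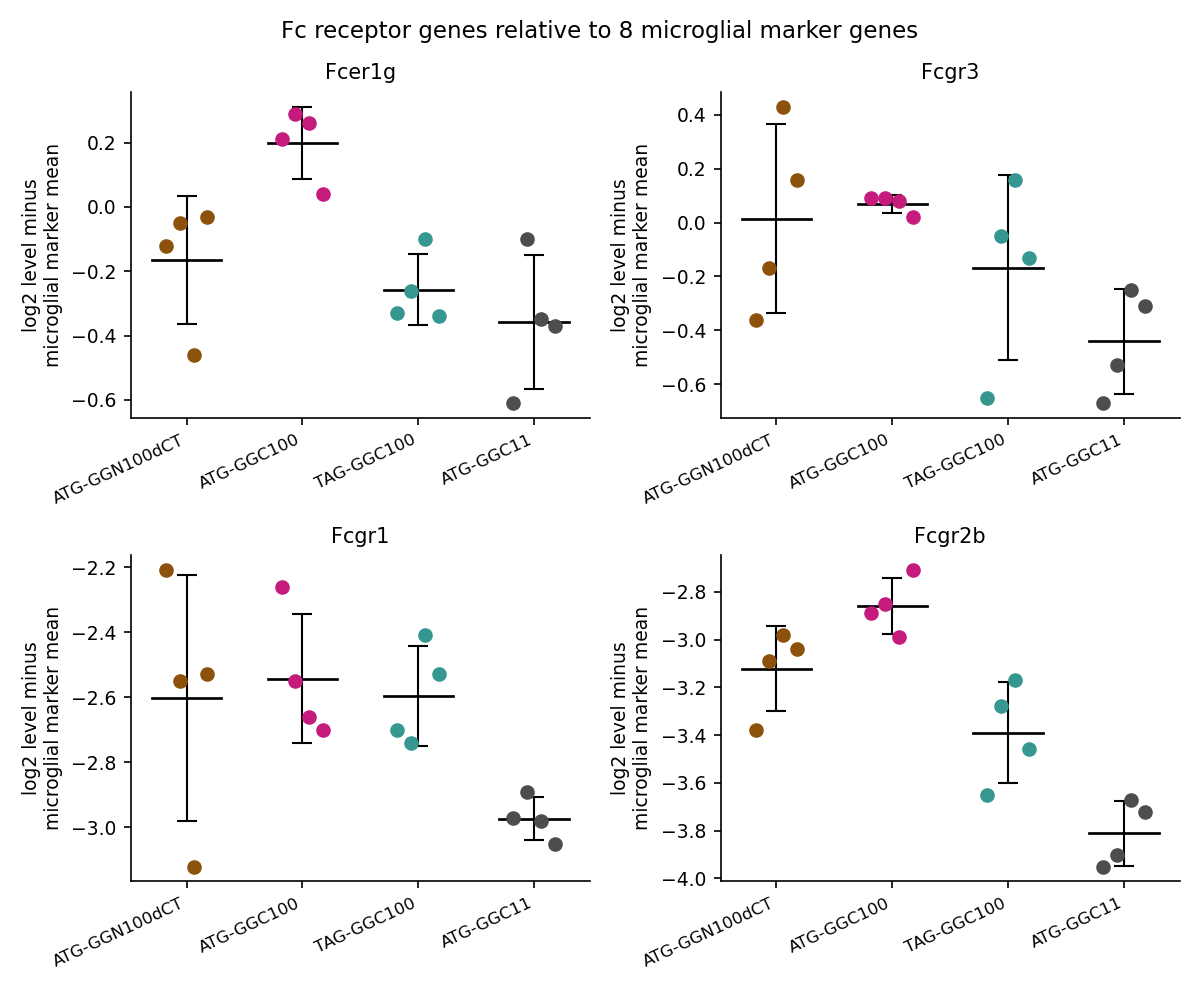
Log2(FPKM + 0.1) of each Fc receptor gene minus the mean of 8 microglial marker genes in the same library (y axis), by construct, with mean and SD. Fcgr2b is at -2.99 to -2.71 in ATG-GGC100 and at -3.95 to -3.67 in ATG-GGC11.

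Other cell types, some of which carry Fc receptors, were measured through their markers. Border macrophage genes summed to 2.72 to 3.31 FPKM in ATG-GGN100dCT, 5.30 to 7.04 FPKM in ATG-GGC100, 3.76 to 4.11 FPKM in TAG-GGC100 and 1.99 to 4.37 FPKM in ATG-GGC11. Of these 8 genes, 2 rose in ATG-GGC100 relative to ATG-GGC11: Mrc1, the mannose receptor, in every alternative, and F13a1, whose call was lost without ATG-GGC100 replicate 3 or ATG-GGC11 replicate 1 or 2 (edgeR adjusted p of up to 0.0771). Meningeal fibroblast genes summed to 12.2 to 22.5 FPKM in ATG-GGC100 against 5.10 to 13.4 FPKM in ATG-GGC11, with Lum and Col1a2 called among 5 and both calls lost without ATG-GGC11 replicate 2 (edgeR adjusted p of up to 0.1). Over all genes tested, 2.2% were called as higher in ATG-GGC100 than in ATG-GGC11. The part that border macrophages have in the receptor levels was not tested. B and plasma cell genes summed to at most 1.11 FPKM in any library, with Ms4a1 and Pax5 under 0.1 FPKM throughout. Mast cell genes reached 2.25 FPKM in ATG-GGC100 and at most 0.45 FPKM in the other groups. Only Hdc of the 6 was tested, and it was not called. Mcpt4, Cpa3 and Cma1, which were too low to test, averaged 0.37, 0.27 and 0.255 FPKM in ATG-GGC100 and at most 0.045 FPKM in each other group, and their part in the result was not tested. Monocyte and neutrophil genes summed to 3.24 to 4.63 FPKM in ATG-GGN100dCT, 0.65 to 0.76 FPKM in ATG-GGC100, 0.51 to 3.39 FPKM in TAG-GGC100 and 0.22 to 3.02 FPKM in ATG-GGC11. Of the 3 of 10 tested, S100a8 was called higher in ATG-GGN100dCT than in ATG-GGC11 (1.07 against 0.147 FPKM), and S100a8 and S100a9 were called higher than in ATG-GGC100, each a call lost with single libraries left out (edgeR adjusted p of up to 0.118). Their part in the ATG-GGN100dCT values was not tested. Dendritic cell genes summed to 2.53 to 3.94 FPKM and T and NK cell genes to 1.41 to 4.26 FPKM over all libraries, and of the 3 of 6 and 1 of 9 genes tested, edgeR called 0 in ATG-GGC100 or ATG-GGN100dCT against ATG-GGC11. Hepatocyte genes summed to 22.6 to 25.3 FPKM in ATG-GGN100dCT, 1.82 to 4.41 FPKM in ATG-GGC100, 1.19 to 9.18 FPKM in TAG-GGC100 and 3.46 to 4.81 FPKM in ATG-GGC11. For ATG-GGN100dCT against ATG-GGC11, 6 of 7 were called, where 6.66% of all genes were. The endothelium of liver sinusoids, which is rich in Fcgr2b, and Kupffer cells were read from Stab2, Clec4g, Oit3, Clec4f, Vsig4 and Marco, which summed to at most 0.77 FPKM in any library, with Clec4f, Vsig4 and Marco under 0.1 FPKM. Apoa2, a hepatocyte gene that lies 3192 bases from Fcer1g, had 38 to 56 counts in ATG-GGN100dCT against 2 to 8 counts in ATG-GGC11.

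The receptors bind IgG, and the RNA of antibody chains, of IgG and of other classes, was read in the same libraries. RNA levels do not give the amount of IgG protein in the tissue. Of 12 genes of antibody chains, 4 were tested and none was called in ATG-GGC100 or ATG-GGN100dCT against ATG-GGC11 by edgeR. Ighm, the chain of IgM and not of IgG, was the most abundant at 18.5 ± 5.03 FPKM in ATG-GGC100 against 16.9 ± 2.49 FPKM in ATG-GGC11. Ighg2c, an IgG chain, was at 5.57 ± 2.28 FPKM in ATG-GGN100dCT and 4.08 ± 1.20 FPKM in ATG-GGC100, against 3.07 ± 0.435 FPKM in ATG-GGC11. ATG-GGN100dCT did not overlap ATG-GGC11, and DESeq2 called that difference (adjusted p = 0.0473) where edgeR did not (0.0972). Ighg2c was called by edgeR for ATG-GGN100dCT against TAG-GGC100, where the groups overlapped and the call was lost (adjusted p of up to 0.146) without ATG-GGN100dCT replicate 1 or 4, TAG-GGC100 replicate 2 or 4, ATG-GGC100 replicate 3 or ATG-GGC11 replicate 1, 2 or 4.

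Of the 15 other Fc receptor genes present, 6 were tested and 2 rose in ATG-GGC100 relative to ATG-GGC11. Over all genes tested in that comparison, 2.2% were called as higher. Fcgr4, an activating IgG receptor that also signals through the gamma chain, had 12, 13, 13 and 17 counts in ATG-GGC100 against 4, 1, 2 and 0 counts in ATG-GGC11. Its log2 fold change was 2.80 ± 0.54 (edgeR adjusted p = 0.00442). In ATG-GGN100dCT it had 7, 12, 10 and 4 counts, a log2 fold change of 2.17 ± 0.58 over ATG-GGC11 (edgeR adjusted p = 0.0310), a call lost without ATG-GGN100dCT replicate 2 or 3 or ATG-GGC11 replicate 2, 3 or 4 (adjusted p of up to 0.0937). Fcrls, a microglial Fc receptor-like gene, rose to 16.3 ± 2.16 FPKM in ATG-GGC100, against 9.94 ± 2.05 FPKM in ATG-GGC11 (edgeR adjusted p = 0.00623). It was lower in ATG-GGN100dCT than in ATG-GGC100, with a log2 fold change of -0.92 ± 0.13 (edgeR adjusted p = 0.000647). Other receptors that use the gamma chain were too low to follow: Oscar was the 1 of 7 tested, and it was not called. Tyrobp, the ITAM adaptor of TREM2 and the only 1 of 6 other ITAM adaptors tested, rose to 35.5 ± 1.98 FPKM in ATG-GGC100, against 18.6 ± 2.56 FPKM in ATG-GGC11 (log2 fold change 0.89 ± 0.14, edgeR adjusted p = 0.000672).

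Downstream of the receptors, activating and inhibitory genes were called in the same comparison. Of 31 tested genes of activating signalling, 9 were higher and 0 lower in ATG-GGC100 than in ATG-GGC11, with a median log2 fold change of 0.55. Over all genes tested in that comparison, 3.5% were called, 2.2% as higher. Syk itself, the kinase that binds the phosphorylated ITAM, was not called, at 0.537 ± 0.123 FPKM in ATG-GGC100 against 0.435 ± 0.0705 FPKM in ATG-GGC11 (edgeR adjusted p = 0.601). Vav1, an exchange factor for Rac, had a log2 fold change of 1.01 ± 0.16, and the PI3-kinase subunit gene Pik3cg 0.88 ± 0.16. The adaptor gene Pik3ap1 followed at 0.78 ± 0.15. Blnk, an adaptor that Syk phosphorylates, had a log2 fold change of 1.64 ± 0.34 (edgeR adjusted p = 0.0159), a call lost without ATG-GGC100 replicate 3 or ATG-GGC11 replicate 1 or 2. Blnk also rose in ATG-GGN100dCT relative to ATG-GGC11, at 3.68 ± 1.64 FPKM against 0.838 ± 0.0435 FPKM (log2 fold change 2.09 ± 0.34, edgeR adjusted p = 0.00399). It was the only activating gene that rose there, and Bcl10 fell, a call lost without ATG-GGN100dCT replicate 4 (adjusted p = 0.065). These calls among 31 genes are near the share over all genes in that comparison, 6.66% called and 3.17% as higher. Of the 9 activating genes called for ATG-GGC100, 6 lost the call when a single library was left out, Vav1, Pik3cg and Pik3ap1 being the exceptions.

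Of 17 tested inhibitory receptors and phosphatases, 8 were higher and 0 lower in ATG-GGC100 than in ATG-GGC11, with a median log2 fold change of 0.78. The share over all genes there was 3.5% called and 2.2% as higher. Lilrb4a rose by 3.13 ± 0.38 and Cd22 by 2.92 ± 0.38, both receptors with ITIMs and both under 0.5 FPKM. Ptpn6, the phosphatase SHP-1, rose to 3.05 ± 0.303 FPKM in ATG-GGC100, against 1.27 ± 0.217 FPKM in ATG-GGC11 (log2 fold change 1.23 ± 0.17, edgeR adjusted p = 0.000192). Inpp5d, the lipid phosphatase SHIP that acts at the Fcgr2b ITIM, had a log2 fold change of 0.67 ± 0.14 (edgeR adjusted p = 0.00920). With the microglial markers as a covariate, Lilrb4a and Cd22 kept their calls for ATG-GGC100 against ATG-GGC11, and the other genes called there in these lists, Fcgr4, Fcrls and Tyrobp included, lost them. As above, that fit cannot cleanly separate the covariate from ATG-GGC100. In ATG-GGN100dCT against ATG-GGC11, 3 of the 17 rose (Lilrb4a, Dok2 and Cd22) and 0 fell, where 3.17% of all genes were called as higher. The Dok2 call was lost without ATG-GGC11 replicate 2, and that of Cd22 without ATG-GGN100dCT replicate 3 or 4 or ATG-GGC11 replicate 1, 3 or 4 (edgeR adjusted p of up to 0.0838). Ptpn6 and Inpp5d were not called there (edgeR adjusted p = 0.207 and 0.316). Against TAG-GGC100, ATG-GGC100 had 12 activating genes higher and 0 lower, and 8 inhibitory genes higher and 1, Dok3, lower. In that comparison 7.44% of all genes tested were called, 4.05% as higher. In TAG-GGC100 against ATG-GGC11, where 0.00564% of all genes were called, edgeR called 0 of either list, and their medians were 0.01 and 0.05.

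**Figure D5:**
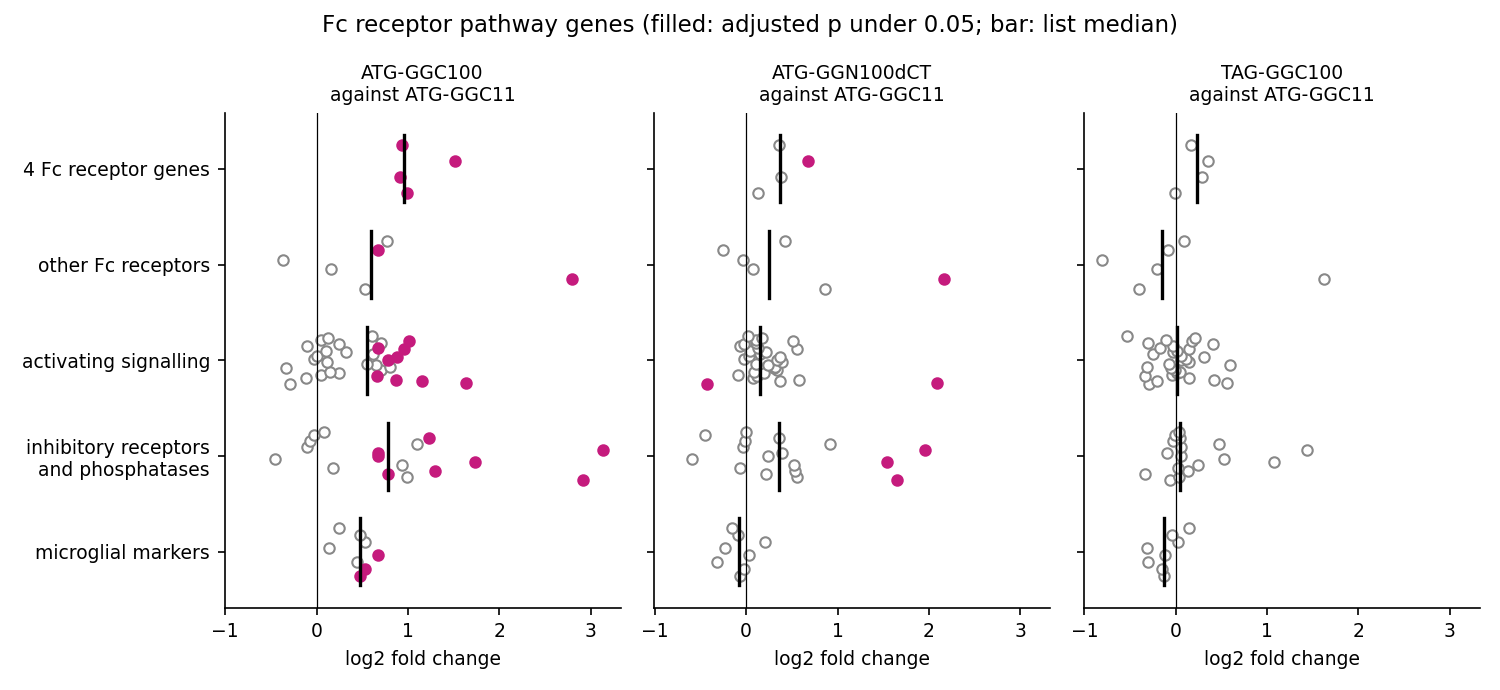
Fitted log2 fold change (x axis) of every tested gene in 5 lists (y axis, 1 point a gene, bar at the list median), in 3 comparisons with ATG-GGC11; filled points have an edgeR adjusted p under 0.05. For ATG-GGC100 the medians are 0.96 for the 4 Fc receptor genes, 0.55 for activating signalling, 0.78 for inhibitory genes and 0.47 for microglial markers, and no point is filled for TAG-GGC100.

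The patterns of the 4 genes over all 16 libraries were compared with each other and with other genes. Likeness was measured as the root mean square difference of log2 CPM, centred on each gene's mean, over the 16 libraries and among 13493 genes with a mean of at least 1 FPKM. Between the 4 genes it was smallest for Fcer1g and Fcgr1 (0.228), then Fcgr2b and Fcgr3 (0.241), and largest for Fcgr1 and Fcgr2b (0.380). The part of counting noise in these differences was not tested. The genes most like Fcer1g were Ly86 (0.152), Laptm5, C1qc, Lcp1 and Irf5, against a median of 0.507 over all genes compared. For Fcgr3 they were Vav1 (0.153), Ncf1, Ctsd, H2-K1 and Cd9 (median 0.446). For Fcgr2b they were Ctsc (0.181), Itgb2, H2-K1, C1qa and H2-D1 (median 0.611). For Fcgr1 they were Ube2l6 (0.239), Irgm2, B2m, Ly86 and Laptm5 (median 0.474).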

How the data were processed

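RNA from the cortex of AAV-injected mice was sequenced in 16 libraries, 4 a construct. Per the labels' protocols, poly(A) RNA was isolated from total RNA and primed at random. No strand-marking step is described, so reads of a gene and of an antisense partner cannot be told apart. FastQC 0.10.1, cutadapt 1.9.1 and the builds GRCm39 and mm10 are listed, without roles, in the submitters' processing notes; the aligner, counter and annotation are not given in the sources used here. Per the file headers, the deposited table holds whole-number counts and FPKM per gene and library. Dividing the deposited counts by exonic length and by library total (12838756 to 19131210 counts) gave the authors' FPKM back within 0.005. Gene coordinates are the table's, whose build is not named, and sequences are GRCm38.

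Counts of 17737 genes (edgeR's filterByExpr, minimum count 10) went into edgeR 4.0.16 (R 4.3.3) with TMM scaling and robust quasi-likelihood F tests. The model held the construct alone and was fitted to the 16 libraries together. Adjusted p-values are Benjamini-Hochberg over all genes within each of 6 comparisons, with a threshold of 0.05. Ratios and levels relative to microglial markers used exact permutation tests over every split of the libraries, written for this purpose and checked against scipy 1.17.1. Scripts were tested on simulated data. Alternatives were limma 3.58.1 on log2 FPKM, DESeq2 1.42.0, other scalings and filters, fits of 8 libraries, a replicate block, a microglial covariate and leaving out each library. Library totals as scaling and ratios with no pseudocount were added after the data were examined. The members and gene lists were chosen with earlier results of these data known. Named genes are the members, the 5 most like each, up to 4 called genes of a list with the smallest adjusted p, and Fcgr4, Syk, Tyrobp, Inpp5d and Ptpn6; other names complete a count, and Ighm and Ighg2c, Slc17a7, Mbp and Apoa2 were chosen after their values were seen. Fcrl2 was not matched in the table. Some list genes and a promoter motif are not reported here. Whether the 4 libraries of a construct are separate animals is not stated, so the p-values reflect how these libraries vary, which may be technical. No pair within a construct agreed within sampling noise (chi-square over its degrees of freedom 4.83 to 22.9 in 24 pairs). No batch or date was given. Reads were amplified by PCR, and no molecular identifiers are named.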

Additional observations from a re-analysis of the deposited data

How the results depend on the processing

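Of 624 fold changes of the 4 Fc receptor genes under alternatives, 582 kept their direction and side of the threshold, 30 lost the call, 4 gained one and 8 turned sign, none of the 8 called. These are Fcer1g for TAG-GGC100 against ATG-GGC11 (0.12 with the microglial covariate, -0.09 to 0.04 with a library left out), Fcgr1 with the covariate for ATG-GGC100 against TAG-GGC100 (-0.18) and ATG-GGN100dCT against ATG-GGC100 (0.20), and Fcgr1 for ATG-GGN100dCT against TAG-GGC100 (-0.09 to 0.33 with a library left out). With the microglial markers as a covariate, the number of the 4 genes called was 1 in place of 4 for ATG-GGC100 against ATG-GGC11, 0 in place of 3 for ATG-GGC100 against TAG-GGC100, and 0 in place of 3 for ATG-GGN100dCT against ATG-GGC100. For ATG-GGN100dCT against ATG-GGC11 it was 0 in place of 1 in a fit of those 8 libraries, and 0 to 2 when libraries were left out in turn. The cause was not tested, and the marker mean was higher in every ATG-GGC100 library than in any other library. With a pseudocount of 1 the ratio difference of Fcer1g over Fcgr2b was 0.14 for ATG-GGC100 against ATG-GGC11, and that of Fcgr2b over Fcgr3 was -0.09 there, -0.04 for ATG-GGN100dCT against ATG-GGC11 and -0.09 for ATG-GGC100 against TAG-GGC100, each with its sign turned. Fcgr2b relative to the microglial markers went to 0.13 for ATG-GGC100 against TAG-GGC100 and -0.01 for ATG-GGN100dCT against ATG-GGC100 with that pseudocount. Under the covariate, markers that form it turned sign: Gpr34 to -0.09 for ATG-GGC100 against TAG-GGC100 and to 0.01 for ATG-GGN100dCT against ATG-GGC100, and Cx3cr1 to 0.02 in the last. Uncalled genes turned sign with the covariate too: Syk to -0.32 for ATG-GGC100 against ATG-GGC11, 0.08 for ATG-GGN100dCT against ATG-GGC11 and 0.40 for ATG-GGN100dCT against ATG-GGC100, and Inpp5d to 0.07 in the last. Syk for ATG-GGN100dCT against ATG-GGC11 was 0.01 with limma at either pseudocount, 0.02 with library totals and -0.12 to 0.13 with a library left out, where Tyrobp was -0.21 to 0.05. For TAG-GGC100 against ATG-GGC11, Inpp5d was -0.01 to 0.19 and Ptpn6 -0.05 to 0.17 with a library left out. Replicate numbers do not pair the libraries: over 24 same-numbered pairs the correlation of deviations was -0.206 to 0.193, 3 were over 0.1, and 0 libraries correlated best with their own number. With the replicate block the 4 genes kept 4, 0, 1, 3, 0 and 3 calls over the 6 comparisons, as without it, and 530 genes in all were called for ATG-GGC100 against ATG-GGC11 in place of 621. Counts over all genes moved by more than 1.5 times in several settings: for ATG-GGC100 against ATG-GGC11 from 621 to 157 under the covariate and 307 to 766 with a library left out; for ATG-GGN100dCT against ATG-GGC11 from 1181 to 703 in 8 libraries and 386 to 1834; for ATG-GGC100 against TAG-GGC100 from 1320 to 126 under the covariate and 526 to 1655; for ATG-GGN100dCT against TAG-GGC100 from 1542 to 634 in 8 libraries and 515 to 2123; for ATG-GGN100dCT against ATG-GGC100 from 363 to 22 under the covariate, 181 in 8 libraries, 556 with no filter, 695 by DESeq2 and 165 to 688; for TAG-GGC100 against ATG-GGC11 from 1 to 2 under the covariate and the block, 22 with no filter and in 8 libraries, 42 by DESeq2 and 1 to 25. Library totals as scaling raised the share of higher among called genes to 74.8% in place of 62.8% for ATG-GGC100 against ATG-GGC11, 67.1% in place of 47.6% for ATG-GGN100dCT against ATG-GGC11, 70.1% in place of 54.5% for ATG-GGC100 against TAG-GGC100 and 65.7% in place of 49.4% for ATG-GGN100dCT against TAG-GGC100, with the same number of Fc receptor genes called in each. Depth limits Fcgr1 and Fcgr2b most, at 33 to 115 and 49 to 202 counts a library.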
